A study of Mus musculus with 12 samples.

Results

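Toll-like receptor (TLR) and NF-kB signalling was followed in mouse alveolar macrophages through 42 genes, chosen by symbol from the 55291 genes of the deposited expression table: 8 cell-surface receptors and co-receptors, 6 genes of the endosomal receptors, 4 adaptors, 11 kinases, ubiquitin ligases and their partners, 5 NF-kB subunits, and 8 inhibitors and feedback regulators. All 42 were found in the table, and all 42 had values above the no-read level in every mouse. Female C57BL/6NJ mice aged 8 to 11 weeks breathed filtered air (6 mice) or 0.8 ppm ozone (6 mice) for 4 h a day on 4 consecutive days. Lungs were taken 3 days later, alveolar macrophages were purified by flow cytometry, and polyadenylated RNA was sequenced. Each library came from a different mouse, and the cells were sorted in 2 batches of 3 mice per group. The labels name no genetic modification and no second exposure for either group. Per the series title, the setting is pulmonary tolerance to ozone, and the comparison asks which of these genes differed between the exposures.

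TLRs bind conserved microbial molecules and products of damaged cells. Receptors on the plasma membrane recognise mainly lipoproteins, lipopolysaccharide and flagellin, whereas receptors in endosomes recognise nucleic acids and need the chaperone Unc93b1 to get there. Most of them signal through the adaptor Myd88 to the Irak kinases, the ubiquitin ligase Traf6 and the IkB kinase complex, which releases NF-kB dimers from their inhibitors, and several of the genes that NF-kB then activates encode inhibitors of the same pathway. Alveolar macrophages meet inhaled material continuously and are known for restrained inflammatory responses.

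The promoter runs of the genes that passed the test, and of 3 feedback genes known as NF-kB targets, are given here so that sites for NF-kB can be read directly. Sequences are from RefSeq on GRCm38.p6, 5′ to 3′ on the strand of the gene, and each is the longest run within the 250 bases before the RefSeq start that holds no annotated GENCODE M21 exon. Capitals mark matches to the kappaB consensus, the sequence bound by NF-kB dimers, on either strand, with overlapping matches joined. The runs lie at chr3:83841768-83841858 (Tlr2, minus strand), chr1:182954538-182954787 (Tlr5, plus), chrX:106143025-106143203 (Tlr13, plus), chr9:119340042-119340268 (Myd88, minus), chr10:19015411-19015547 (Tnfaip3, minus), chr11:54962941-54963190 (Tnip1, minus) and chr12:55492648-55492897 (Nfkbia, minus). Those of Myd88 and Tnfaip3 lie in an intron of a longer annotated transcript of the same gene, and the other 5 lie outside their gene. Tnfaip3 has another RefSeq start, whose window (chr10:19011964-19012213) held 0 matches and is not printed.
Tlr2: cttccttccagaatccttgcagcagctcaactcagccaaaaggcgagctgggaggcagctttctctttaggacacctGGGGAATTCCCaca
Tlr5: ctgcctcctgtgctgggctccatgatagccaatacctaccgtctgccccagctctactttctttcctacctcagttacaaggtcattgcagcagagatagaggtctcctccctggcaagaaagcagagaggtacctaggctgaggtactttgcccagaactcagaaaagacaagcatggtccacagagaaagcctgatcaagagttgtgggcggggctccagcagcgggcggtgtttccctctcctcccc
Tlr13: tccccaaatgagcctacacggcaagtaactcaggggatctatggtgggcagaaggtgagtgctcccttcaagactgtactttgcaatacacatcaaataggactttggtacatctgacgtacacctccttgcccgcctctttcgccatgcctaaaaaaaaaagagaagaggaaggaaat
Myd88: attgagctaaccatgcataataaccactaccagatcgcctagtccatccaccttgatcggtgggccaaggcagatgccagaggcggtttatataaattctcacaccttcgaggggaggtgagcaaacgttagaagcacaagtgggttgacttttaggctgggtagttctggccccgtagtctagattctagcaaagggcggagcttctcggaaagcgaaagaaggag
Tnfaip3: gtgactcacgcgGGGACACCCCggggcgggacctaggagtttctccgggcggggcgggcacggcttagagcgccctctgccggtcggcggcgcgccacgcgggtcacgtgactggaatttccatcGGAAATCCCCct
Tnip1: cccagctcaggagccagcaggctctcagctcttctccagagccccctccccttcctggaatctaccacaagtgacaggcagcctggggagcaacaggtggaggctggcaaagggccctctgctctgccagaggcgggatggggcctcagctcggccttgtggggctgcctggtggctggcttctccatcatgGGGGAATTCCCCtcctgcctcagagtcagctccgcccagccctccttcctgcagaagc
Nfkbia: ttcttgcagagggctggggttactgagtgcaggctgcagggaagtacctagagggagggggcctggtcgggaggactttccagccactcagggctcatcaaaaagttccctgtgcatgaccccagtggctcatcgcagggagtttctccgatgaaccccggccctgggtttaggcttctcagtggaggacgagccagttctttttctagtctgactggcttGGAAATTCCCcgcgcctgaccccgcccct
In the full 250-base windows, Tlr2 held a kappaB match and the windows of Tlr5, Tlr13 and Myd88 held none. A window was available for 31 of the 42 genes, and 11 of the 31 had a match in at least 1 window. By window, 14 of the 44 windows of these genes had a match (31.8%), against 7.25% of 32817 mouse promoter windows of the same length. Different starts of a gene counted separately, so Nfkb2 gave 3 of the 14 and Irak1 gave 2 with the same site. The genes were chosen for their roles and include known NF-kB targets, so these shares are no test. The 11 genes with a match had a median difference between ozone and filtered air of -0.0017, with 5 above and 6 below 0, and the 20 without a match had a median of -0.066, with 7 above and 13 below 0. A match of letters is not a bound site.

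Values are on the log2 scale of a variance-stabilizing transformation and were deposited relative to the filtered-air mice, whose mean is 0 in every gene. A level therefore cannot be compared between genes, and the scale shrinks the differences of genes with few reads. The depth of the libraries is unknown. Of the listed markers of resident alveolar macrophages, 15 of 15 were kept for testing, and 3 differed by limma's adjusted p: Chil3 (0.0320) and Car4 (0.0460) were higher and Krt79 (0.0177) lower, beside 4.25% of all genes called. Of the 15, 9 were below 0 (median -0.062), and differences ran from -0.37 to 0.58. At an unadjusted p under 0.05, 3 were higher and 3 lower, beside 8.43% and 8.29% of all genes. Markers of other cell types were partly above the no-read level. Among neutrophil markers, Elane and Camp were without a read in all 12 mice. Ly6g was above the no-read level in 1 mouse, of filtered air, and Mpo in 3, all of ozone. The mean of the 4 markers kept ranged from -0.12 to -0.0032 after ozone and from -0.14 to 0.24 in filtered air. Of these 4, 3 were below 0, and 1 was lower at an unadjusted p under 0.05, beside 8.29% of all genes. The monocyte markers, 6 of 6 kept with 0 called, ranged from -0.28 to 0.099 after ozone and from -0.24 to 0.36 in filtered air. Of these 6, 5 were below 0 (median -0.13), 1 of them at an unadjusted p under 0.05. The B cell markers, 7 of 7 kept with 0 called, ranged from -0.24 to -0.083 after ozone and from -0.21 to 0.30 in filtered air. Of these 7, 6 were below 0 (median -0.19), and 4 were lower and 1 higher at an unadjusted p under 0.05, beside 8.29% of all genes lower and 8.43% higher at that p. The interstitial macrophage markers had 5 of 6 above 0 (median 0.22), with 0 called and 2 higher at that p (8.43% of all genes), and the dendritic cell markers had 6 of 7 below 0, with 0 called and 2 lower (8.29%). Of the T and NK cell markers 6 of 8 were below 0, with 0 at that p, and of the endothelial and fibroblast markers 6 of 9, with 1 lower and 1 higher. Of 8 epithelial markers 6 were below 0 and 2 above, with 1 lower and 1 higher at that p. The lower one, Epcam, fell by 0.55 (limma's adjusted p = 0.0062) without overlap and was the only one called. The highest difference of the 8 was 0.16. The part of these markers in the values of the signalling genes was not tested. Filtered-air mouse 4 had the lowest RNA integrity number (8.9) and the highest mean among the filtered-air mice in 5 of 9 marker lists of other cells. In bulk RNA, fewer cells with a transcript and less of it per cell cannot be told apart.

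Tlr2, Tlr5 and Myd88 fell after ozone and Tlr13 rose, and the remaining genes did not pass the test. The test was limma's moderated test with flow-sort batch as a covariate, adjusted by Benjamini-Hochberg over the 19633 genes kept, with a threshold of 0.05. The 4 called genes of 42 stand beside a background of 4.25% of all genes called, the 3 lower genes beside 1.84% and the 1 higher gene beside 2.41%. At an unadjusted p under 0.05 there were 13 of the 42 genes, beside 16.7% of all genes. Of these, 9 were lower, beside 8.29% of all genes, and 4 were higher, beside 8.43%. Ozone and filtered-air values were fully separate in 1 of the 42 genes, a higher one, beside 3.53% of all genes (1.96% higher, 1.58% lower). The median difference of the 42 was -0.017, and that of all genes was -0.0033. The number of calls depended on single mice. Each of the fits that left out 1 mouse called between 0 of the 42 genes (without filtered-air mouse 1) and 4 (without filtered-air mouse 4). The other counts were 1 without filtered-air mouse 6 or ozone mouse 2 (Tlr2), 1 without filtered-air mouse 2 or ozone mouse 3 (Ikbkg, none of the 4), 2 without filtered-air mouse 3 or 5 or ozone mouse 4 or 5, and 3 without ozone mouse 1 or 6. These counts include Tnfaip3 without filtered-air mouse 4, Ticam1 without filtered-air mouse 5, Tnip1 without ozone mouse 1 and Nfkb2 without ozone mouse 4. After quantile normalization 0 of the 42 were called, beside 0.871% of all genes. The differences there were -0.23 (Tlr2), -0.28 (Tlr5), -0.13 (Myd88) and 0.18 (Tlr13). With a variance trend only Tlr2 was called, beside 3.11% of all genes. That trend is fitted on gene means, which here follow the ozone difference and carry no abundance, so it is a weak check.

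**Figure D1:**
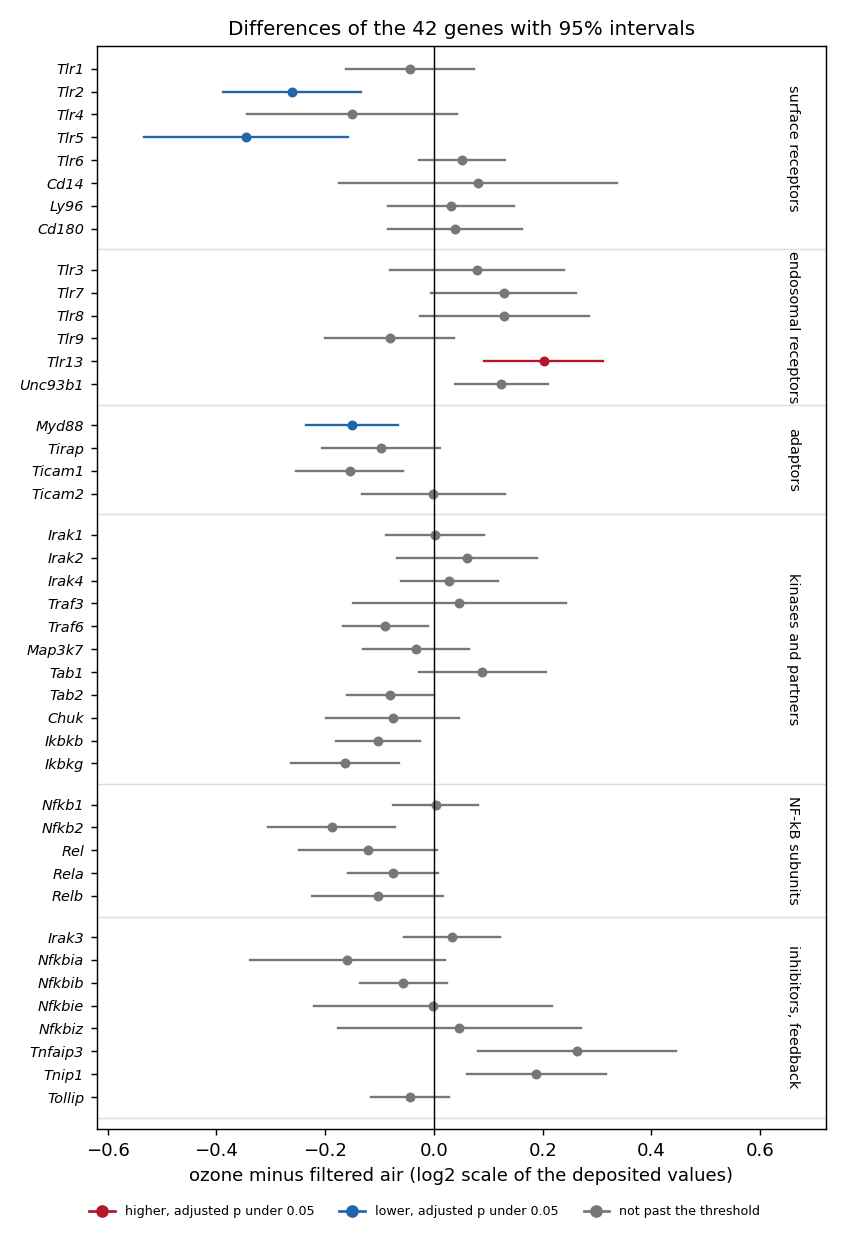
Difference between the ozone and filtered-air means of each of the 42 genes (points, log2 scale of the deposited values, horizontal axis) with its 95% interval from limma (bars), grouped by role from top to bottom. Tlr2, Tlr5 and Myd88 are lower and Tlr13 is higher at an adjusted p under 0.05, and the other genes, in grey, are not past the threshold.

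Among the cell-surface receptors, the flagellin receptor Tlr5 and the lipoprotein receptor Tlr2 fell, and the other 6 genes did not pass the test. Tlr2, which pairs with Tlr1 or Tlr6, lay between -0.39 and -0.084 after ozone (median -0.28) and between -0.15 and 0.15 in filtered air (median 0.010). In 5 of the 6 ozone mice it was below every filtered-air mouse; ozone mouse 2 overlapped with them. The mean fell by 0.26 (SE 0.059, adjusted p = 0.0225). The SD was 0.11 in both groups (n = 6 each). Tlr5 had the largest difference of the 42 genes. It lay between -0.55 and -0.096 after ozone (median -0.37) and between -0.22 and 0.18 in filtered air (median 0.0060). Ozone mice 5 and 6 were within the filtered-air range and the other 4 were below it. Its mean fell by 0.35 (SE 0.088, adjusted p = 0.0392). The SD was 0.18 in the ozone mice and 0.16 in the others (n = 6 each). The Tlr2 difference missed the threshold when filtered-air mouse 1 (adjusted p = 0.0560) or 2 (0.0512), or ozone mouse 3 (0.0588) or 5 (0.0542), was left out, at -0.25 to -0.23. That of Tlr5 missed it in 8 of 12 such fits, at adjusted p-values from 0.0600 to 0.0979 and differences from -0.35 to -0.30. Tlr5 passed without filtered-air mouse 3 or 4, and without ozone mouse 5 or 6.

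The partners of Tlr2 did not pass the test. Tlr1 differed by -0.044 (95% interval -0.16 to 0.075) and Tlr6 by 0.051 (-0.028 to 0.13). The lipopolysaccharide receptor Tlr4 differed by -0.15 (-0.34 to 0.043), with SDs of 0.16 in the ozone mice and 0.19 in the others. Its co-receptor Ly96 differed by 0.031 (-0.085 to 0.15). Cd14, which hands lipopolysaccharide to Tlr4 and Ly96, differed by 0.081 (-0.17 to 0.34), and its filtered-air values ran from -0.33 in mouse 6 to 0.48 in mouse 4, more than in any ozone mouse. Cd180, a TLR-like surface protein best known from B cells, differed by 0.039 (-0.085 to 0.16). The 8 surface genes had a median difference of -0.0061, with 4 above and 4 below 0.

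Among the endosomal genes, Tlr13, a receptor for bacterial ribosomal RNA, rose, and the other 5 did not pass the test. Tlr13 lay between 0.13 and 0.33 after ozone (median 0.19) and between -0.16 and 0.13 in filtered air (median 0.032). It was the only one of the 42 genes whose groups did not overlap, although filtered-air mouse 4, at 0.126, lay just below ozone mice 3 and 6, the lowest 0.133. Its mean rose by 0.20 (SE 0.051, adjusted p = 0.0385). The SD was 0.074 in the ozone mice and 0.099 in the others (n = 6 each). The call was kept without filtered-air mouse 4 (adjusted p = 0.0211) and without ozone mouse 6 (0.0403), and was lost without each of the other 10 mice, at adjusted p-values from 0.0513 to 0.0939 and differences from 0.17 to 0.22.

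Of the other endosomal genes, the chaperone Unc93b1 came nearest to the threshold. It lay between 0.047 and 0.20 after ozone and between -0.056 and 0.076 in filtered air, with 5 of 6 ozone mice above every filtered-air mouse. The difference was 0.12 (95% interval 0.039 to 0.21, adjusted p = 0.107). The RNA receptors Tlr7 and Tlr8 differed by 0.13 each, with intervals from -0.0051 to 0.26 and from -0.025 to 0.28. Tlr3, which binds double-stranded RNA, differed by 0.079 (-0.081 to 0.24), and Tlr9, which binds DNA, by -0.082 (-0.20 to 0.037), the 1 endosomal gene below 0. The median of the 6 genes was 0.13.

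Myd88, the adaptor shared by most TLRs and the interleukin-1 receptor, fell, and the other 3 adaptors did not pass the test. Its filtered-air values lay between -0.051 and 0.032 (median 0.0095). After ozone it lay between -0.23 and -0.047 (median -0.15), and 5 of 6 ozone mice were below every filtered-air mouse; ozone mouse 5 overlapped. The mean fell by 0.15 (SE 0.039, adjusted p = 0.0460). The SD was 0.072 in the ozone mice and 0.034 in the others (n = 6 each). The call was kept without ozone mouse 1 (adjusted p = 0.0474) or ozone mouse 5 (0.0287) and was lost without each of the other 10 mice, at adjusted p-values from 0.0502 to 0.110 and differences from -0.16 to -0.13. With RNA integrity as a covariate it was also lost (-0.15, adjusted p = 0.0604).

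Ticam1, the adaptor that Tlr3 and Tlr4 use for the interferon branch, was at -0.23 to -0.070 after ozone and -0.11 to 0.16 in filtered air, with 5 of 6 ozone mice below all filtered-air mice, and differed by -0.16 (95% interval -0.25 to -0.057, adjusted p = 0.0759). Tirap, which brings Myd88 to Tlr2 and Tlr4, differed by -0.097 (-0.21 to 0.011). Ticam2, which links Tlr4 to Ticam1, differed by -0.00077 (-0.13 to 0.13). All 4 adaptors were below 0, with a median of -0.12.

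**Figure D2:**
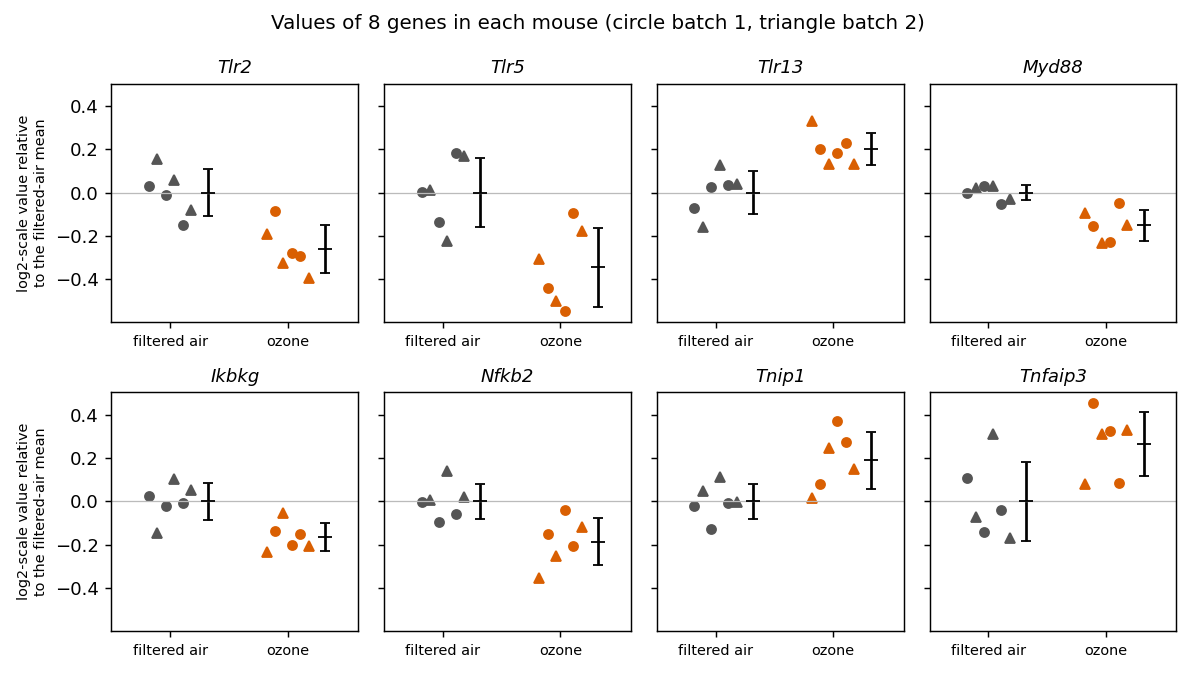
Values of 8 genes in each mouse (vertical axis, log2 scale relative to the filtered-air mean), in grey for filtered air and orange for ozone, with circles for flow-sort batch 1 and triangles for batch 2; the bars beside the points are the mean and SD of 6 mice. The groups of Tlr13 do not overlap, those of Tlr2 and Myd88 overlap in 1 ozone mouse and those of Tlr5 in 2.

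None of the 11 kinases, ubiquitin ligases and partners passed the test, and 4 of them had an unadjusted p under 0.05, all below 0, beside 8.29% of all genes lower at that p. The smallest p was that of Ikbkg, the regulatory subunit of the IkB kinase. It lay between -0.23 and -0.055 after ozone (median -0.17) and between -0.15 and 0.10 in filtered air (median 0.0095), and 4 of 6 ozone mice were below every filtered-air mouse. The difference was -0.16 (SE 0.046, adjusted p = 0.0632), and it passed without filtered-air mouse 2 (-0.20, adjusted p = 0.0239) or ozone mouse 3 (-0.19, adjusted p = 0.0464). Its catalytic partner Ikbkb differed by -0.10 (95% interval -0.18 to -0.025, adjusted p = 0.147), with 5 of 6 ozone mice below every filtered-air mouse, and Chuk, the other catalytic subunit, by -0.076 (-0.20 to 0.047). Upstream of them, the ubiquitin ligase Traf6 differed by -0.089 (-0.17 to -0.011, adjusted p = 0.220), and Tab2, which docks the kinase Map3k7 to ubiquitin chains, by -0.080 (-0.16 to -0.00037, adjusted p = 0.297). Map3k7 itself differed by -0.033 and its partner Tab1 by 0.089. The receptor-proximal kinases Irak1, Irak2 and Irak4 differed by 0.0019, 0.061 and 0.028, and the ligase Traf3 by 0.047, each with an interval that included 0. The median of the class was -0.033.

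No NF-kB subunit passed the test, and 4 of 5 were below 0. Nfkb2, the precursor of the subunit that pairs with Relb in the non-canonical pathway, had the smallest p. It lay between -0.35 and -0.042 after ozone (median -0.18) and between -0.097 and 0.14 in filtered air (median -8.4e-05). In 5 of 6 ozone mice it was below all filtered-air mice. The difference was -0.19 (SE 0.054, adjusted p = 0.0714), and without ozone mouse 4, the highest ozone mouse, it was -0.22 (adjusted p = 0.0372). Relb differed by -0.10 (95% interval -0.22 to 0.017), with 5 of 6 ozone mice below every filtered-air mouse and ozone mouse 4 above all of them. Rel differed by -0.12 (-0.25 to 0.0063) and Rela, the main transactivating subunit of the canonical pathway, by -0.075 (-0.16 to 0.0074). Nfkb1, the partner of Rela, differed by 0.0030 (-0.075 to 0.081). The median of the 5 subunits was -0.10.

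The 8 inhibitors and feedback regulators did not pass the test, and 2 of them, Tnip1 and Tnfaip3, had an unadjusted p under 0.05, both above 0, beside 8.43% of all genes higher at that p. Tnip1, which binds ubiquitin and partners Tnfaip3, had the smallest p. It lay between 0.017 and 0.37 after ozone (median 0.20) and between -0.13 and 0.11 in filtered air (median -0.0073), with 4 of 6 ozone mice above every filtered-air mouse. The difference was 0.19 (SE 0.060, adjusted p = 0.102), and it passed without ozone mouse 1, the lowest ozone mouse (0.23, adjusted p = 0.0421). Tnfaip3, the ubiquitin-editing enzyme that shuts off signalling to NF-kB, had the largest positive difference of the 42 genes. It lay between 0.082 and 0.45 after ozone (median 0.32) and between -0.17 and 0.31 in filtered air (median -0.055), and filtered-air mouse 4 held the highest of the filtered-air values. The difference was 0.26 (95% interval 0.082 to 0.45, adjusted p = 0.108), and without filtered-air mouse 4 it was 0.33 (adjusted p = 0.0185).

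The IkB proteins, which hold NF-kB in the cytoplasm, also did not pass the test. Nfkbia differed by -0.16 (95% interval -0.34 to 0.020), Nfkbib by -0.056 (-0.14 to 0.023) and Nfkbie by -0.0017 (-0.22 to 0.22). The nuclear IkB protein Nfkbiz differed by 0.047 (-0.18 to 0.27), and its filtered-air values spread from -0.32 in mouse 6 to 0.46 in mouse 4. Irak3, the inactive kinase that restrains Irak signalling, differed by 0.033 (-0.055 to 0.12), and Tollip, an adaptor that binds Irak1, by -0.044 (-0.12 to 0.029). The median of the 8 was 0.016, with 4 above and 4 below 0.

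**Figure D3:**
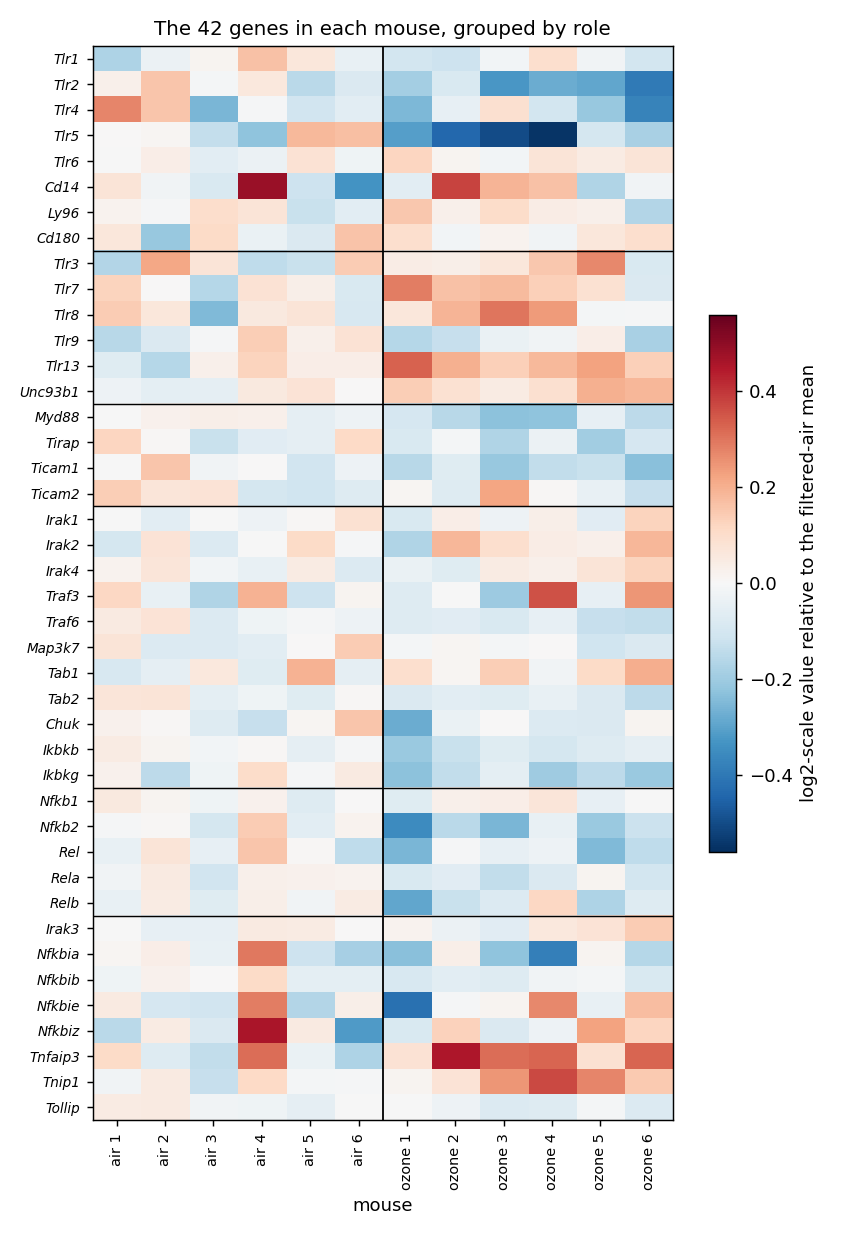
Values of all 42 genes (rows, grouped by role in the order of the text) in the 12 mice (columns, filtered air on the left and ozone on the right); colour gives the log2-scale value relative to the filtered-air mean, red above and blue below. Filtered-air mouse 4 is the highest of its group in 7 of the 8 inhibitors and feedback regulators, and ozone mouse 1 is the lowest of its group in 4 of the 5 NF-kB subunits.

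Spread evenly over the 6 mice of a group, each mouse would hold the highest and the lowest value in 7 of the 42 genes. Filtered-air mouse 4 had the highest value of its group in 15 of the 42 genes and in 7 of the 8 inhibitors and feedback regulators, among them Nfkbia (0.29), Nfkbie (0.29), Nfkbiz (0.46) and Tnfaip3 (0.31). The part of its other-cell markers and of its RNA integrity in these values was not tested. Ozone mouse 1 had the lowest value of its group in 14 genes, 5 of them kinases and partners, 4 of them NF-kB subunits and 5 of them inhibitors. Its RNA integrity number was 9.4, and it held the highest mean of the ozone mice in 0 of the 9 marker lists of other cells. Ozone mouse 6 had the lowest value among ozone mice in 12 genes, 4 of them endosomal, and the highest mean in 5 of those 9 lists; the part of those markers was not tested. Filtered-air mice 3 and 5 had the lowest value of their group in 12 and 11 genes.

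The difference was also computed within each flow-sort batch of 3 mice per group. Of the 42 genes, 30 had the same sign in both batches, as did 12509 of all 19633 genes (63.7%). Tlr13 differed by 0.21 in batch 1 and 0.20 in batch 2, Myd88 by -0.14 and -0.17, Tlr5 by -0.38 and -0.31, and Tlr2 by -0.17 and -0.35. Unc93b1 differed by 0.12 in both and Ikbkg by -0.16 and -0.17. Nfkb2 was further from 0 in batch 2 (-0.30) than in batch 1 (-0.079), and Tab1 was at -0.023 in batch 1 and 0.20 in batch 2. Limma's interaction test of exposure and batch called 0 of the 42 genes, with a lowest adjusted p of 1.00, and 2 genes, Tab1 and Nfkb2, had an unadjusted p under 0.05, beside 2.6% of all genes. With 3 mice per group, 0 of the 42 genes were called in either batch alone, where 0.458% of all genes were called in batch 1 and 0 genes in batch 2.

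**Figure D4:**
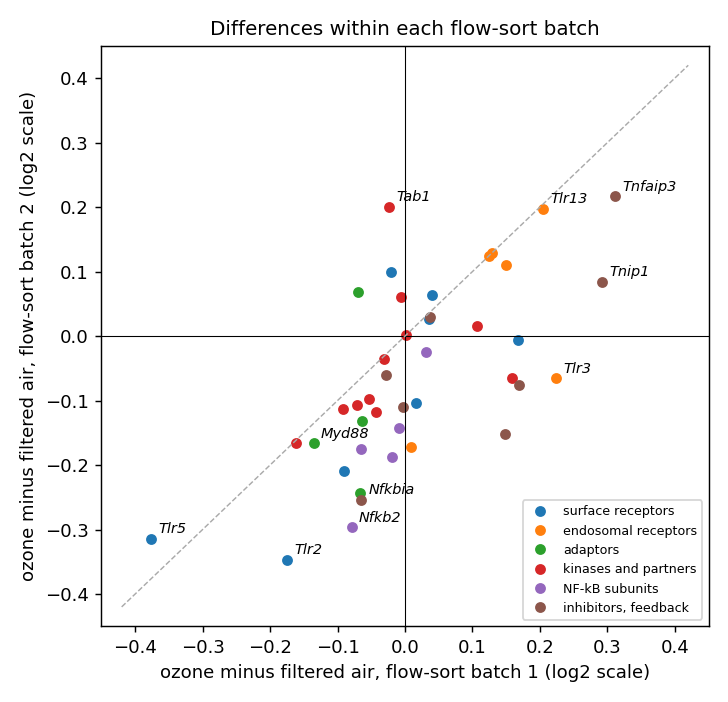
Difference between ozone and filtered air in flow-sort batch 1 (horizontal axis) and batch 2 (vertical axis), both on the log2 scale, 1 point per gene coloured by role; the dashed line marks equal differences. Tlr13 and Myd88 lie close to the line, and 30 of the 42 genes have the same sign in both batches, beside 63.7% of all genes.

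Other genes of the pathway were read from a list of 52, of which all 52 were kept, 1 was called lower and 0 were called higher, beside 1.84% and 2.41% of all genes. The called gene was Cd36, a scavenger receptor that acts as a co-receptor of Tlr2 with Tlr6. It lay between -0.60 and -0.31 after ozone and between -0.076 and 0.068 in filtered air, with no overlap. Its mean fell by 0.46 (SE 0.051, limma's adjusted p = 0.000402). The SD was 0.11 in the ozone mice and 0.057 in the others (n = 6 each). The median of the list was -0.039, with 18 genes above and 34 below 0.

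A further list held 32 inflammatory genes known as NF-kB targets, all kept, of which 2 were called, both higher, beside 2.41% of all genes called higher. Ebi3, a subunit shared by 2 cytokines of the interleukin-12 family, lay between 0.19 and 0.36 after ozone and between -0.082 and 0.068 in filtered air, and rose by 0.27 (SE 0.046, limma's adjusted p = 0.00491). Its groups did not overlap. Cxcl2, a neutrophil-attracting chemokine, lay between 0.31 and 0.78 after ozone and between -0.49 and 0.35 in filtered air, where mouse 6 was lowest and mouse 4 highest, and rose by 0.51 (SE 0.12, limma's adjusted p = 0.0281). It missed the threshold when filtered-air mouse 1 (adjusted p = 0.0639) or 3 (0.0596), or ozone mouse 2 (0.0684) or 3 (0.0713), was left out, after quantile normalization (0.167) and with a variance trend (0.0596). The largest difference of the list was that of Tnf, an early inflammatory cytokine, which did not pass the test and was chosen after its values were seen. It lay between -0.996 and 0.18 after ozone (median -0.71) and between -0.33 and 0.29 in filtered air (median 0.069). In 5 of 6 ozone mice it was below every filtered-air mouse, and ozone mouse 5 was within their range. The difference was -0.60 (95% interval -0.98 to -0.21, limma's adjusted p = 0.0813). The 32 genes had a median of 0.0026, with 16 above and 16 below 0.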

How the data were processed

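Per the labels, stranded mRNA libraries of flow-sorted alveolar macrophages from 12 mice were sequenced as paired-end reads. The submitters' processing notes name cutadapt, STAR 2.7.7a, Salmon 1.5.2, DESeq2 1.26.0, R 3.6.0, limma 3.42.2 and the genome build mm10, without their roles. The deposited values are on a log2 scale, variance-stabilized and batch-corrected by the authors per the name of the deposited table, and the filtered-air mean of every gene is 0. How reads of related genes were shared out is not given in the sources used here. All 12 columns matched the title of 1 sample.

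Of 25444 genes that vary, those above the lowest value shared by mice of a sort batch in at least 6 of the 12 mice were kept, 19633 in all. Differences were fitted with limma 3.58.1 in R 4.3.3, without a variance trend because gene means carry no abundance here, and with flow-sort batch as a covariate, since the batch correction had used a degree of freedom. The 42 genes and all lists were chosen with earlier results of these data known. Every value range is given for genes past the threshold and for the smallest p of each class; of the other lists, called genes are named. Ranges of Unc93b1, Ticam1 and Tnfaip3 and the end values of Cd14 and Nfkbiz were added after their values were seen. Alternatives covered filters, quantile normalization, covariates, variance models, the replicate number as a block, single batches and leaving out each mouse.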

Additional observations from a re-analysis of the deposited data

Results flagged for a closer look

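In each group of 6 mice, the gap between an extreme mouse and its nearest neighbour was compared with the range of the group (Dixon's ratio against its 95% critical value) for 45 genes, 90 groups in all, of which chance would give about 1 in 20, or 4.5. It was exceeded in 1. Chuk, a catalytic subunit of the IkB kinase, was at -0.278 in ozone mouse 1, with the next lowest ozone mouse at -0.0803 (ratio 0.676). The same mouse was the lowest of its group in 14 of the 42 genes.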

How the results depend on the processing

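The number of the 42 genes called, 4 (1 higher, 3 lower), changed under several settings. Quantile normalization gave 0 (0 higher, 0 lower; 171 genes called overall), the variance trend 1 (0 higher, 1 lower; 611 overall), batch 1 alone 0 (0 higher, 0 lower; 90 overall) and batch 2 alone 0 (0 higher, 0 lower; 0 overall). RNA integrity as a covariate gave 2 higher genes, Tlr13 and Tnfaip3, and 2 lower (803 overall). Without the batch term 7 were called, 6 of them lower, adding Ikbkg, Nfkb2 and Ticam1, while 5.87% of all genes were called. Tlr5 was lost with no filter (limma's adjusted p = 0.0606) and in the robust fit (0.0501), at -0.35 in both, and Myd88 with RNA integrity (0.0604), at -0.15. Leaving out single mice gave 0 to 4 called (0 to 2 higher, 0 to 2 lower; 538 to 751 overall). Single batches have fewer mice; the other causes were not tested. Class medians moved beyond 1 SD of the class mean between mice only in single batches: adaptors to -0.069 in batch 1, surface genes to -0.055 in batch 2, and NF-kB subunits to -0.020 in batch 1 and -0.18 in batch 2.

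Every change of sign was in a gene not called. In batch 1 alone Cd180 was at -0.021, Irak4 at -0.0052, Tab1 at -0.023, Tlr1 at 0.016, Tlr9 at 0.0086 and Nfkbie at 0.15. In batch 2 alone Cd14 was at -0.0060, Nfkb1 at -0.025, Nfkbiz at -0.076, Ticam2 at 0.068, Tlr3 at -0.065 and Traf3 at -0.064. With RNA integrity Irak1 was at -0.0011, Nfkbie at 0.015 and Ticam2 at 0.0057, and after quantile normalization Nfkbie was at 0.013. Without single mice the range crossed 0 for Cd180 (-0.0087 to 0.074), Irak1 (-0.025 to 0.021), Nfkb1 (-0.013 to 0.018), Nfkbie (-0.062 to 0.091), Nfkbiz (-0.024 to 0.15), Ticam2 (-0.050 to 0.030) and Traf3 (-0.022 to 0.10). The cause was not tested.

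The replicate numbers are shared by the groups but name different mice. Deviations of same-numbered mice correlated above 0.1 in 4 of 6 pairs (up to 0.284), but not for replicates 3 (-0.0026) and 5 (0.0072). Since pairing required all 6, the samples were not treated as paired. With the replicate block in place of batch 5 of the 42 genes were called, 3 of them among the 4 (Tlr2, Tlr5 and Tlr13, not Myd88), with Nfkb2 and Ticam1 added, beside 6.21% of all genes. With the replicate block and batch together, a fit added after seeing the data, 3 were called (0 higher), Tlr2, Tlr5 and Nfkb2, beside 4.34% of all genes.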
